A study of Homo sapiens with 16 samples.

Results

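The change in gene expression between 6 and 12 hours was measured in HepG2 cells given an adenovirus that expresses GPI-phospholipase D (GPI-PLD). The 4 arrays of GPI-PLD cells at 12 h were set against the 4 arrays of GPI-PLD cells at 6 h, chosen by their labelled virus and culture time. They are 8 of the 16 arrays of the series, and the other 8 held HepG2 cells given a control adenovirus that expresses beta galactosidase (LacZ), again 4 at 6 h and 4 at 12 h. HepG2 is an established human hepatoma line that secretes many liver plasma proteins. All 4 groups carried an adenovirus, so no group shows uninfected cells. Each array was made from 10 micrograms of total RNA. The virus dose, the promoter of the transgene, and the source culture of each array are not in the labels, so p-values measure only the spread between these samples. Replicates are numbered 1 to 4 within a group in the order of the sample records, which pairs no arrays across groups.

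GPI-PLD is a secreted enzyme, made largely by the liver, that cuts the lipid anchor of proteins held on the outer membrane by glycosylphosphatidylinositol. Cells in culture pass through several programmes as hours go by. The integrated stress response slows general translation and lets the transcription factor ATF4 raise genes for amino acid supply. NRF2 raises genes of glutathione and thioredoxin metabolism. Cells that leave the cell cycle lower the genes of DNA replication and mitosis.

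Each array carried 22215 probe sets besides controls, and 8102 genes were bright enough to test. Signals are MAS 5.0 intensities, and a log2 difference is 12 h minus 6 h on log2(signal + 63), with 4 arrays at each time. It is given ± SE, with the spread taken from a fit of all 16 arrays. Such differences understate the change of dim genes. The array medians were 313.4 to 337.1 at 6 h and 338.1 to 377.6 at 12 h in GPI-PLD cells. Arrays of GPI-PLD cells at 12 h were less alike, with mean correlations of 0.942 to 0.945 within the group against 0.962 to 0.966 at 6 h. The ratio of 3' to 5' GAPDH signal, a sign of RNA quality, ran from 0.891 to 1.0 at 6 h and from 0.887 to 1.12 at 12 h. Summed signals of the 19 hepatocyte markers were 624484 to 688923 at 6 h and 652591 to 720745 at 12 h.

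GPLD1, the gene of the enzyme named in the virus label, gave no call. One of its 2 probe sets above the filter read 181, 216, 280 and 318 on the 6 h arrays and 223, 284, 307 and 352 on the 12 h arrays, and the groups overlapped. The log2 difference was 0.19 ± 0.30 with a limma adjusted p of 0.83 in a fit of all probe sets. The other probe set above the filter read 127, 224, 341 and 445 at 6 h, then 284, 307, 329 and 393, again with overlap, and gave 0.26 ± 0.32 and an adjusted p of 0.774. The species of the transgene's coding sequence and the part of it that these probes could detect are not in the labels, so these values do not check the label.

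Between 6 and 12 h, 373 genes rose (4.60% of the 8102 tested) and 411 fell (5.07%) at a limma adjusted p under 0.05. The 784 calls compare with 1844 genes at an unadjusted p under 0.05. Among the called genes 67 rose and 26 fell by at least 2-fold, and the median fold was 1.54 for rises and 1.40 for falls. The arrays of the 2 times did not overlap for 333 of the genes that rose and 360 of those that fell, against 648 with all 12 h arrays higher and 637 with all lower among all 8102 genes tested. Calls followed brightness: of the 2026 brightest genes 8.34% rose and 12.6% fell, and of the 2026 dimmest 1.14% and 0.691%. The median 95% interval reached 0.21 log2 units to either side of the estimate in the brightest 2026 genes and 0.72 in the dimmest 2026. Where a called gene had a second probe set above the filter, that set moved the same way for 124 of 141 genes that rose (87.9%) and 126 of 141 that fell (89.4%). Of the 30 largest rises among brighter genes without overlap, those not described below are INHBE (2.17), DDIT3 (1.82), SLC7A11 (1.78), CTH (1.74), DDIT4 (1.72), CEBPB (1.71), SIK1 (1.32) and IFRD1 (1.23), in log2 differences. The corresponding falls are MT1HL1 (-1.34), FBXW2 (-0.90), MT1G (-0.88), GEMIN6 (-0.86), EED (-0.81), SSNA1 (-0.76), LSM3 and MCM6 (both -0.75), RXRA and MCM10 (both -0.73), RBM14 (-0.72), and TTI1, UFD1 and ZBED1 (all -0.71). RXRA lost its call without GPI-PLD 6 h replicate 4 (adjusted p 0.052). With probe sets averaged per gene RXRA, FBXW2, MT1G and EED lost theirs. A second FBXW2 probe set above the filter gave 0.23 ± 0.16. MT1HL1 and ZBED1 lost theirs without GPI-PLD 12 h replicates 2 and 4 together. Without GPI-PLD 6 h replicate 3 the count of falls was 256 and that of rises 287.

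**Figure D1:**
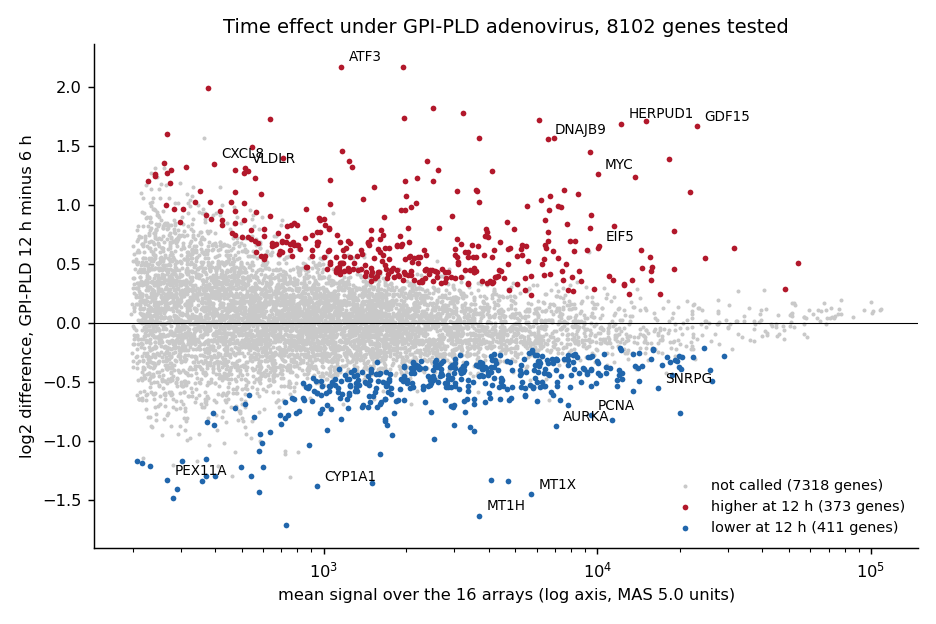
Log2 difference between GPI-PLD cells at 12 h and 6 h (vertical) against the mean signal over 16 arrays (horizontal, log axis), one point per tested gene; red points are the 373 genes that rose and blue points the 411 that fell at an adjusted p under 0.05. The scatter narrows with brightness, ATF3 at 2.17 lies among the highest points, and the metallothioneins MT1H and MT1X lie well below other genes of their brightness.

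Of 18 tested regulators of the integrated stress response 13 rose and 0 fell, with a median log2 difference of 0.75 against 0.01 over all tested genes. ATF4, the transcription factor at the centre of the response, read 10595, 10946, 11503 and 12745 at 6 h and 16236, 16493, 17832 and 20152 at 12 h. All 12 h arrays lay above all 6 h arrays, a rise of 1.54-fold (0.62 ± 0.09, limma adjusted p 2.83e-05). ATF3, a factor induced by ATF4, read 258, 392, 441 and 521 and then 1851, 1987, 2047 and 2053, so the transcript moved from near the array median to well above it (2.17 ± 0.18, adjusted p 1.01e-08). TRIB3, a pseudokinase that damps the response, went from 8437, 8723, 8818 and 9184 to 19918, 20102, 21062 and 22143. The spread within each time was small beside that step of 2.36-fold (1.24 ± 0.08, adjusted p 4.47e-10). PPP1R15A, the phosphatase subunit that restores translation, rose 2.75-fold (1.46 ± 0.18), and the stress-induced chromatin protein NUPR1 rose 2.30-fold (1.20 ± 0.14). VLDLR, a lipoprotein receptor also driven by this response, was dim at 6 h (184 to 337) and reached 646 to 969 at 12 h (1.31 ± 0.21, adjusted p 0.000198). Outside the 18 regulators, STC2, a secreted glycoprotein, and GTPBP2, a ribosome rescue factor, rose 2.23-fold and 2.31-fold. EIF2AK1, one of the kinases that start the response, gave -0.19 ± 0.09 with an adjusted p of 0.234. EIF2AK3, another such kinase, chosen after its values were seen, rose by 0.45 ± 0.13 (adjusted p 0.0299). Its call was lost without any one of GPI-PLD 6 h replicates 1 and 2 or GPI-PLD 12 h replicates 1, 2 and 4 (adjusted p 0.0527 to 0.108).

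Among enzymes that make amino acids and feed one-carbon metabolism, 6 of 17 tested rose, 1 fell and the median was 0.29. Asparagine synthetase (ASNS) went from 4004, 4111, 4143 and 4360 to 8084, 8393, 8879 and 9206, close to a doubling on every array (1.04 ± 0.09, adjusted p 2.15e-08). MTHFD2, a mitochondrial folate enzyme, rose 1.89-fold (0.92 ± 0.08), SHMT2, which makes glycine from serine, 1.54-fold (0.62 ± 0.10), and the aspartate aminotransferase GOT1 1.70-fold (0.77 ± 0.08). ASS1, an enzyme of arginine synthesis, rose by less (0.39 ± 0.09, adjusted p 0.00761). PCK2, outside these 17, is the mitochondrial form of PEP carboxykinase. It read 4149, 4180, 4668 and 4983 and then 6430, 6446, 6950 and 7150 (0.58 ± 0.09, adjusted p 0.000135). PSAT1, of serine synthesis, gave 0.29 ± 0.12 and did not pass (adjusted p 0.141, and 0.0116 without GPI-PLD 12 h replicate 3), and glutamine synthetase (GLUL) gave -0.15 ± 0.09 (adjusted p 0.331).

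Of 13 amino acid transporters 6 rose and 0 fell, with a median of 0.44. SLC7A1, the carrier of arginine and lysine, read 4800, 4857, 5033 and 5280 at 6 h and 8528, 10209, 10515 and 10675 at 12 h. No array of one time reached the other time (0.99 ± 0.09, adjusted p 7.46e-08). SLC3A2, the heavy chain that several light-chain carriers need, rose 2.19-fold (1.13 ± 0.09), the glutamine carrier SLC38A1 1.56-fold (0.64 ± 0.10) and the neutral carrier SLC1A4 by 0.44 ± 0.10. SLC38A2, the brightest carrier of the list at 25887 to 35978 at 6 h, overlapped between the times (0.27 ± 0.10, adjusted p 0.103). Without GPI-PLD 6 h replicate 4, which read 35978, it gave 0.38 and an adjusted p of 0.0145. SLC7A5, a light chain that pairs with SLC3A2, gave 0.32 ± 0.12 (adjusted p 0.0811, and 0.0433 without GPI-PLD 12 h replicate 2). Of 16 aminoacyl-tRNA synthetases, which charge tRNA with amino acids, 6 rose and 0 fell. GARS1 for glycine rose 1.79-fold (0.84 ± 0.11), CARS1 for cysteine 1.70-fold (0.77 ± 0.09), TARS1 for threonine by 0.65 ± 0.11 and SARS1 for serine by 0.63 ± 0.08. The bright lysine enzyme KARS1, at 18032 to 18720 at 6 h and 15781 to 19650 at 12 h, overlapped and gave -0.08 ± 0.08 (adjusted p 0.61).

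Promoters of the risen stress genes are shown because the response element bound by ATF4 together with C/EBP factors has the core TGATGNAA. The motif was searched on both strands in RefSeq promoter windows of 300 bases (GRCh38.p14), 250 before and 50 after the start. It lay in 3.67% of 27305 promoters, in 1.80% of those of tested genes, in 6.35% of those of genes that rose (20 of 315) and in 1.44% of those of genes that fell (5 of 348). Among called genes with a promoter in the table it lay in 1 of 10 stress response regulators, 2 of 6 amino acid synthesis enzymes and 3 of 5 amino acid transporters. Of these 21 genes, 3 held a match wholly before the start. The transporter matches began at 37 (SLC3A2), 7 (SLC7A1) and -4 (SLC38A1) from the start, so they lay after or across it. The 3 stretches below are 88 bases each, 5' to 3' on the gene's strand, with the match in capitals. They lie at chr1:212565176-212565263 on the plus strand for ATF3, chr7:97872429-97872516 on the minus strand for ASNS and chr10:99430775-99430862 on the minus strand for GOT1. The GOT1 match is the motif read on the opposite strand. A match describes the letters of the window and no binding was measured.
ATF3: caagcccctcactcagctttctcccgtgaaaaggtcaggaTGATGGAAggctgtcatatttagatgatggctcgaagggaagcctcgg
ASNS: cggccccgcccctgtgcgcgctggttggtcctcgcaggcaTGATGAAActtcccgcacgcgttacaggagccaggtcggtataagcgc
GOT1: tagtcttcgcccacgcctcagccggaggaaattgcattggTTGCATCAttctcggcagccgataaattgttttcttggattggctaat

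The unfolded protein response expands the folding and disposal capacity of the endoplasmic reticulum (ER), and 8 of its 23 tested genes rose and 0 fell, with a median of 0.19. HERPUD1, which helps to remove misfolded ER proteins, read 5397, 5557, 5801 and 6776 at 6 h and 16958, 18902, 19381 and 21238 at 12 h. That is a rise of 3.23-fold with no overlap (1.69 ± 0.10, adjusted p 3.27e-11). DNAJB9, an ER co-chaperone, went from 3278, 3316, 3456 and 3551 to 8747, 10080, 10589 and 11447 (1.56 ± 0.09, adjusted p 3.27e-11). HSPA5, the main ER chaperone, was already bright at 23562 to 29446 and rose to 37344 to 45618 (0.64 ± 0.08, adjusted p 1.52e-05). HYOU1, SDF2L1 and MANF, further ER folding and secreted stress proteins, rose by 0.70 ± 0.11, 0.80 ± 0.12 and 0.70 ± 0.09. The brightest members without a call were CANX, P4HB and PDIA6, which fold glycoproteins and form disulfide bonds, at 0.15 ± 0.06, 0.13 ± 0.10 and 0.19 ± 0.11 (adjusted p 0.165, 0.507 and 0.33). XBP1, whose transcript is spliced in this response, gave 0.12 ± 0.09 (adjusted p 0.477), and its spliced form is not told apart by the array.

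**Figure D2:**
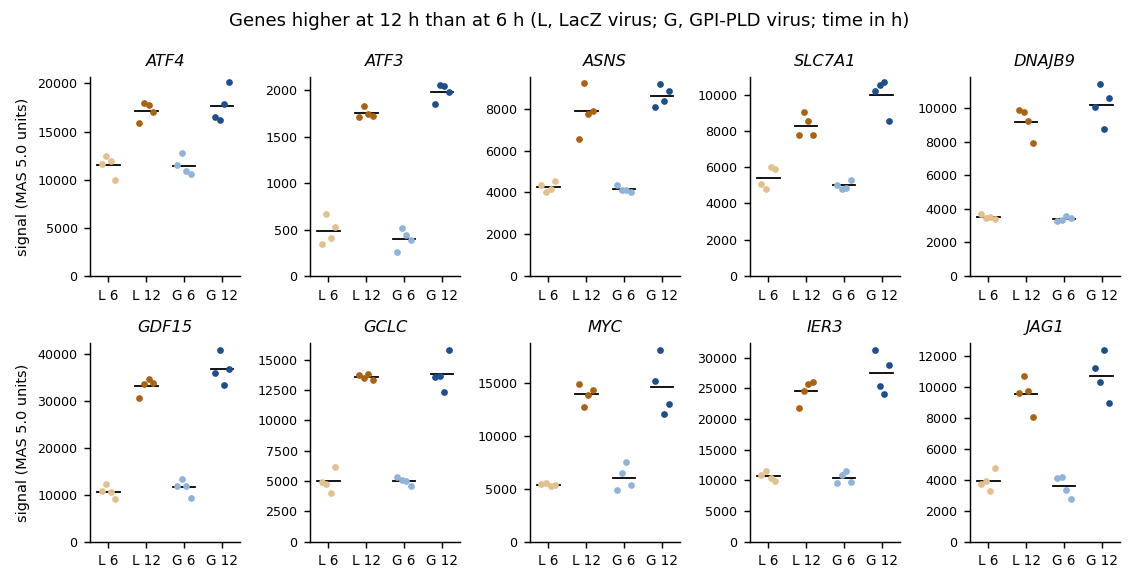
Signal on every array (points, linear axes from 0) with group means (bars) for 10 genes that rose in GPI-PLD cells; L 6 and L 12 are LacZ cells and G 6 and G 12 GPI-PLD cells at 6 and 12 h. In each panel the 4 GPI-PLD arrays at 12 h lie above the 4 at 6 h, as for ATF4 with 16236 to 20152 against 10595 to 12745.

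Immediate early genes, the transcripts that answer growth factors and stress within minutes to hours, were higher at 12 h, with 8 of 20 rising, 0 falling and a median of 0.63. IER3, which modulates cell survival, read 9568, 9719, 10930 and 11488 and then 24156, 25438, 28843 and 31303. Every 12 h array more than doubled the lowest 6 h value (1.39 ± 0.09, adjusted p 1.98e-10). MYC, the growth factor-responsive transcription factor, read 4940, 5336, 6488 and 7532 at 6 h and 12084, 13039, 15195 and 18175 at 12 h (1.26 ± 0.12, adjusted p 9.38e-08). The spread of MYC within each time was wide but the times did not overlap. IER2 rose 2.11-fold (1.08 ± 0.11), and JUN and EGR1, founding members of the class, rose by less (0.64 ± 0.14 and 0.62 ± 0.14). The small MAF proteins MAFF and MAFG, partners of NRF2, rose by 1.37 ± 0.13 and 0.81 ± 0.16. JUND, a bright member of the list without a call, gave 0.19 ± 0.07 (adjusted p 0.107). PIM1, a kinase induced by cytokines and outside the list, read 1182, 1207, 1227 and 1288 at 6 h. At 12 h it read 2718, 2912, 2966 and 3017, among the tightest of the rises (1.20 ± 0.10, adjusted p 1.55e-08).

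Feedback genes of several signalling routes were among the rises. Of 11 MAP kinase phosphatases and Sprouty-type inhibitors 3 rose and 0 fell, led by DUSP1, which read 1409, 1556, 1666 and 1690 and then 3610, 3637, 4354 and 4371 (1.30 ± 0.10, adjusted p 8.93e-09). DUSP6 and DUSP9, bright members that remove phosphate from ERK, gave 0.16 ± 0.15 and -0.23 ± 0.09 (adjusted p 0.592 and 0.14). The other probe sets of DUSP6 gave 0.47 ± 0.10 and 0.21 ± 0.09. SPRY4, an inhibitor of receptor tyrosine kinase signalling, rose by 1.02 ± 0.13 and KLF9, a Kruppel-like factor, by 1.29 ± 0.20. In the list of TGF-beta, Notch and Wnt feedback genes 6 of 19 rose and 2 fell. JAG1, a ligand of Notch receptors, went from 2790, 3356, 4115 and 4176 to 8990, 10357, 11235 and 12367 (1.57 ± 0.13, adjusted p 1.65e-08). HEY1, a target of Notch, rose 1.76-fold (0.81 ± 0.11), and TGIF1, a corepressor of TGF-beta targets, rose by 1.37 ± 0.15. DKK1, a secreted inhibitor of Wnt, moved the other way, from 4257, 4334, 4360 and 4379 to 2158, 2706, 2814 and 3112 (-0.68 ± 0.12, adjusted p 0.00041).

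Of 15 chemokines and NF-kappaB feedback genes 5 rose and 0 fell. CCL20, a chemokine for dendritic cells and lymphocytes, was the brightest of the risen ones, at 4948, 5443, 5614 and 6538 and then 10900, 11858, 12753 and 12762 (1.09 ± 0.10, adjusted p 5.99e-08). CXCL8, the neutrophil chemokine, stood below the array medians at 166 to 266 and reached 492 to 850 (1.35 ± 0.25, adjusted p 0.000663). The cytokine LIF rose from 294 to 479 up to 969 to 1253 (1.40 ± 0.20, adjusted p 3.92e-05). NFKBIA, the inhibitor that NF-kappaB itself induces, gave -0.26 ± 0.14 (adjusted p 0.272). With GPI-PLD 12 h replicates 2 and 4 left out together the count of risen members was 3. Of 24 interferon response genes 1 rose and 0 fell, with a median of -0.09, so this list did not stand above the 4.60% of all genes. Its single riser, HERC5, read 83.3 on average at 6 h, well under the array medians, and its call was lost without any one of GPI-PLD 6 h replicates 2 and 3 or GPI-PLD 12 h replicates 2, 3 and 4, when the count of the list was 0. ISG15 and IFITM3, bright members of the list, gave -0.39 ± 0.15 and -0.27 ± 0.12 (adjusted p 0.122 and 0.166). Without GPI-PLD 12 h replicate 2, ISG15 gave an adjusted p of 0.0409.

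Of 26 NRF2 targets 11 rose and 0 fell, with a median of 0.22. NFE2L2, which encodes NRF2, read 4629, 4783, 4832 and 5130 at 6 h and 7211, 7691, 7921 and 7939 at 12 h (0.66 ± 0.07, adjusted p 6.08e-07). GCLC and GCLM, the subunits of the enzyme that limits glutathione synthesis, rose 2.74-fold (1.45 ± 0.10, adjusted p 6.22e-10) and 2.45-fold (1.29 ± 0.15, adjusted p 1.75e-06). On single arrays GCLC read 4572, 4997, 5124 and 5368 and then 12385, 13592, 13696 and 15796. TXNRD1, thioredoxin reductase, rose 2.19-fold (1.13 ± 0.09), the aldo-keto reductase AKR1B10 by 0.96 ± 0.10 and the growth inhibitor OSGIN1 by 1.09 ± 0.19. SQSTM1, which links NRF2 control to autophagy, read 2578, 2615, 3965 and 4197 at 6 h, in 2 pairs, and 5251 to 6440 at 12 h (0.86 ± 0.13, adjusted p 9.25e-05). MAP1LC3B, an autophagosome protein outside the list, rose by 0.98 ± 0.10. Against these, the bright peroxide enzyme PRDX1 gave -0.15 ± 0.07 (adjusted p 0.188).

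Genes of the p53 and hypoxia lists divided. Of 21 tested p53 pathway genes 5 rose and 1 fell, with a median of 0.04. GDF15, a stress hormone that acts on appetite, read 9458, 11830, 11898 and 13309 and then 33494, 36056, 36894 and 40871, the brightest gene with a 3-fold rise named here (1.67 ± 0.10, adjusted p 3.8e-11). PMAIP1, a killer protein of the BCL2 family, was nearly dark at 6 h (41.0 to 193) and read 537 to 650 at 12 h (1.99 ± 0.28, adjusted p 3.64e-05). GADD45A, an arrest gene, rose by 1.03 ± 0.17 and the death receptor TNFRSF10B by 0.66 ± 0.08, while CCNG1 gave -0.20 ± 0.09 (adjusted p 0.174). With the filter at the 60th percentile 3 of the list's genes rose. Of 25 hypoxia-responsive genes 6 rose and 1 fell. VEGFA, the vascular growth factor, went from 1605, 1651, 1739 and 2225 to 5092, 5288, 5572 and 5826 (1.57 ± 0.13, adjusted p 9.7e-09). Of its glycolytic members, PGK1 gave -0.12 ± 0.07 (adjusted p 0.354) and ENO1 -0.09 ± 0.08 (adjusted p 0.55), and of 18 glycolysis genes 1 rose and 3 fell.

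Secreted regulators of metabolism were among the largest rises. Of 11 liver hormones and ANGPTL proteins 5 rose and 0 fell. Outside the list, MST1, the hepatocyte growth factor-like protein, read 1913, 1984, 2135 and 2188 and then 4109, 4110, 4665 and 5410 (1.12 ± 0.13, adjusted p 1.43e-06). FST, follistatin, a member of the list that binds activins, rose by 0.81 ± 0.08. IGFBP1, a liver-made binder of insulin-like growth factors, went from 12007, 12870, 13382 and 15252 to 23107, 29578, 30568 and 32910, with 1 of the 12 h arrays lower than the other 3 (1.11 ± 0.17, adjusted p 0.000317). In its list, of 20 tested 2 rose and 0 fell, and the median was -0.04. IRS1, an adaptor of the insulin receptor, gave -0.30 ± 0.13 (adjusted p 0.172).

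Metallothioneins, small proteins that bind zinc and copper, fell. Of 10 tested genes of the metal list 6 fell and 0 rose, with a median of -0.85, and the 6 were all metallothioneins. MT2A, the brightest, read 13526, 13737, 14681 and 15414 at 6 h and 7398, 7534, 8417 and 9035 at 12 h (-0.82 ± 0.09, adjusted p 9.82e-07). MT1F went from 1623, 2174, 2242 and 2334 to 648, 679, 746 and 1105 (-1.35 ± 0.16, adjusted p 3.47e-06). MT1H, the largest fall of the list at -1.63, read 3410, 4457, 7027 and 7472 and then 1071, 1737, 1947 and 2170. MT1X fell by 1.45 ± 0.15 and MT1E by 1.33 ± 0.17 on the log2 scale. These genes are near-identical copies, and a probe set of one may also detect the others, so the values do not separate the members. A second MT1X probe set gave -0.52. The zinc importer SLC39A14, in the same list, gave 0.10 ± 0.06 (adjusted p 0.322).

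CYP1A1, the cytochrome P450 induced through the aryl hydrocarbon receptor, read 1280, 1348, 1382 and 1504 at 6 h and 398, 465, 515 and 604 at 12 h (-1.38 ± 0.20, adjusted p 6.1e-05). Of the other 20 tested genes of P450 and conjugation enzymes, SULT2A1, a sulfotransferase of steroids, fell (-0.49 ± 0.11, adjusted p 0.00591) and 0 rose. SGK1, a kinase induced by serum and glucocorticoid, went from 2656, 3032, 3336 and 3810 to 1313, 1468, 1794 and 1806 (-0.98 ± 0.12, adjusted p 5.72e-06). SGK1 belongs to a list of circadian and glucocorticoid-responsive genes, of which 3 of 14 tested rose and 1 fell. In that list NFIL3, a repressor of the circadian system, rose by 1.12 ± 0.10 and BHLHE40, another clock-linked repressor, by 1.05 ± 0.16. PTPRF, a receptor phosphatase, fell by 0.81 ± 0.12 on the log2 scale (adjusted p 5.65e-05) and DYNLL1, a light chain of dynein, by 0.76 ± 0.09 (adjusted p 2.09e-06).

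Of 57 tested DNA replication genes 24 fell and 0 rose, with a median of -0.45. All 7 tested MCM genes, which encode the replicative helicase and a factor that activates it, fell, by 0.54 to 0.75 on the log2 scale. MCM3 read 6072, 6763, 7294 and 7380 at 6 h and 4190, 4721, 4846 and 5090 at 12 h (-0.54 ± 0.08, adjusted p 0.000135). PCNA, the sliding clamp, read 9455, 10087, 13337 and 13489 at 6 h, in 2 pairs, and 5999, 6448, 6595 and 7711 at 12 h (-0.78 ± 0.11, adjusted p 3.8e-05). Its lower pair was GPI-PLD 6 h replicates 1 and 2, which were the higher pair for SQSTM1. How far other genes split along these arrays was not tested. GINS1, a helicase cofactor, fell by 0.86 ± 0.10 on the log2 scale. Outside the list, DTL, which targets proteins for destruction in S phase, fell by 0.95 ± 0.13, and SKP2, the ubiquitin ligase subunit that removes a cyclin kinase inhibitor, by 0.91 ± 0.12. Thymidine kinase (TK1) gave -0.69 ± 0.13 (adjusted p 0.000936) and DUT, which clears dUTP, -0.52 ± 0.09 (adjusted p 0.000586). TYMS, thymidylate synthase and the brightest member without a call, gave -0.28 ± 0.10 (adjusted p 0.0788, and 0.0492 without LacZ 6 h replicate 3), and 1 of 12 histones fell and 0 rose.

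Of 54 tested mitotic genes 26 fell and 0 rose, with a median of -0.42, and 53 of the 54 had a negative difference. AURKA, the kinase of the spindle poles, read 7968, 8518, 9743 and 9862 at 6 h and 4142, 4766, 4920 and 5831 at 12 h (-0.87 ± 0.12, adjusted p 2.18e-05). All 3 tested cyclins of the list fell: CCNB1 by 0.65 ± 0.09, CCNA2 by 0.64 ± 0.10 and CCNB2 by 0.41 ± 0.08 on the log2 scale. CDCA8, a chromosomal passenger protein outside the list, read 2215, 2253, 2428 and 2675 and then 943, 959, 1202 and 1221, a fall over 2-fold (2.15-fold, -1.11 ± 0.16, adjusted p 5.65e-05). BIRC5, its partner survivin, fell by 0.70 ± 0.14 and the kinesin KIF20A by 0.60 ± 0.11. TOP2A, which untangles DNA before mitosis, read 6554, 6980, 6984 and 6984 and then 4227, 4634, 4815 and 5154 (-0.54 ± 0.08, adjusted p 7.17e-05). KPNA2, an importin, fell by 0.44 ± 0.08 and HMMR, a spindle protein, by 0.76 ± 0.14. CKS1B, a cyclin-dependent kinase subunit, gave -0.15 ± 0.09 (adjusted p 0.342). In bulk RNA, fewer cells in these phases and less transcript per cell cannot be told apart.

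Promoters of 3 of these mitotic genes are shown because the cell cycle homology region, an element of G2 and mitosis genes, has the core TTTGAA or TTCGAA. Searched on both strands of the same windows, the core lay in 16.6% of all promoters, in 11.5% of those of tested genes and in 71.1% (32 of 45) of those of tested mitotic genes. Among mitotic genes that fell it lay in 12 of 20, in 10 of them before the start, and among replication genes that fell in 1 of 20. The box CCAAT, often found near it, lay in 35.7% of all promoters and in 80.0% (36 of 45) of those of tested mitotic genes. The stretches are given 5' to 3' on the gene's strand with the core in capitals, at chr17:40418002-40418087 on the minus strand for TOP2A, chr17:68035596-68035681 on the plus strand for KPNA2 and chr5:163460570-163460631 on the plus strand for HMMR. In TOP2A and KPNA2 the core is read on the opposite strand, and in HMMR 2 copies stand side by side.
TOP2A: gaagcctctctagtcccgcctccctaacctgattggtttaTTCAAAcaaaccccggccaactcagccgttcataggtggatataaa
KPNA2: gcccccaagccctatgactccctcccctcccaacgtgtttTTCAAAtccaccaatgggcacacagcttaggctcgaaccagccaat
HMMR: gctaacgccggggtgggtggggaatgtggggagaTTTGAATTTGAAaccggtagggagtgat

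**Figure D3:**
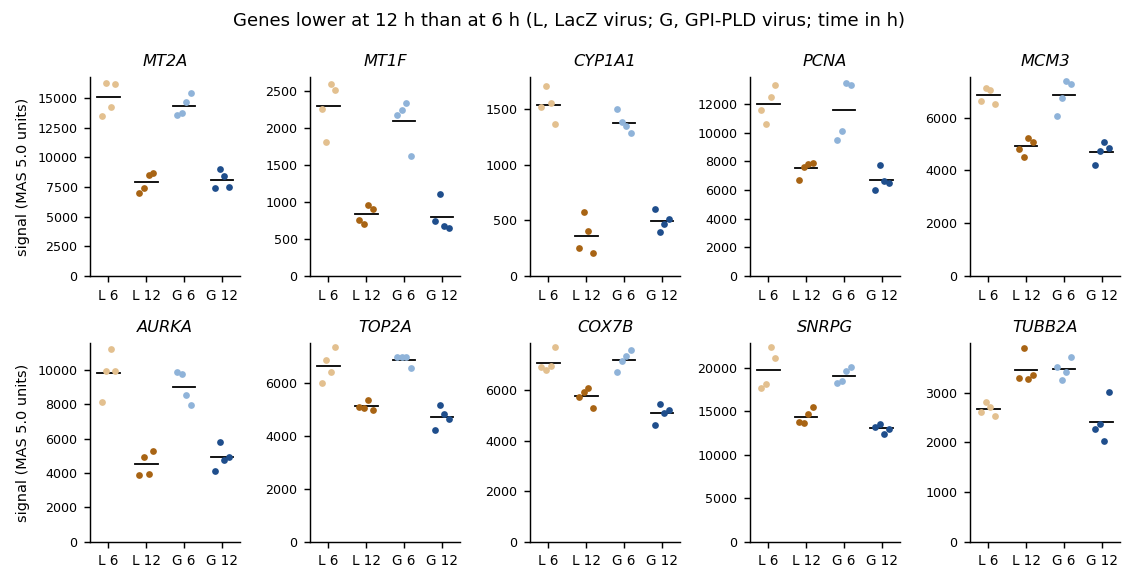
Signal on every array (points, linear axes from 0) with group means (bars) for 10 genes that fell in GPI-PLD cells; L 6 and L 12 are LacZ cells and G 6 and G 12 GPI-PLD cells at 6 and 12 h. In each panel the 4 GPI-PLD arrays at 12 h lie below the 4 at 6 h, and TUBB2A is the panel in which the LacZ arrays go up, from a mean of 2668 to 3456.

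Of 63 tested genes for the mitochondrial respiratory chain and ATP synthase 26 fell and 0 rose. The median was -0.25, the range -0.63 to 0.13, and 59 had a negative difference. The falls were spread over the complexes: 12 of 28 subunits of complex I, 1 of 3 of complex II, 2 of 7 of complex III, 6 of 11 of complex IV and 5 of 14 of ATP synthase. COX7B of complex IV read 6726, 7138, 7352 and 7576 at 6 h and 4615, 5104, 5196 and 5450 at 12 h (-0.50 ± 0.08, adjusted p 0.000143). NDUFB4 of complex I read 8664, 8975, 9130 and 9630 and then 5852, 6184, 6229 and 6644 (-0.54 ± 0.08, adjusted p 2.96e-05). UQCRQ of complex III fell by 0.53 ± 0.09, COX5A by 0.39 ± 0.07 and ATP5PD of ATP synthase by 0.35 ± 0.07 on the log2 scale. NDUFAB1, among the brightest, gave -0.13 ± 0.06 (adjusted p 0.228). Of 49 proteins of the mitochondrial ribosome 9 fell and 0 rose, with a median of -0.21, among them MRPL16 (-0.53 ± 0.10, adjusted p 0.000963) and MRPL39 (-0.44 ± 0.09, adjusted p 0.00236). Bright genes as a whole leaned down, with a median of -0.06 in the brightest 2026 genes, and the part of that lean in these small falls was not tested.

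Of 51 tested ribosomal proteins of the cytosol 1 rose, RPL27A, and 0 fell, and the median was 0.04 with a range of -0.16 to 0.43. RPL27A passed on the whole set of arrays and not without any one of GPI-PLD 6 h replicates 1 to 3 or GPI-PLD 12 h replicates 1, 3 and 4 (adjusted p 0.0509 to 0.115). RPS10 and RPL37A, near the top of the signal scale with means of 99079 and 100639 at 6 h, gave 0.09 ± 0.07 and 0.10 ± 0.08 (adjusted p 0.504 and 0.521). Saturation is not recorded in the values used here. Of translation factors 4 of 39 rose and 3 fell. EIF5, which checks start codon choice, read 7674, 7778, 7865 and 8173 at 6 h and 11476, 11564, 12759 and 14014 at 12 h (0.65 ± 0.08, adjusted p 2.3e-06), and EIF1, its partner in that step, rose by 0.29 ± 0.06 (adjusted p 0.00258). Other probe sets above the filter gave 0.79, 0.75, 0.39 and 0.07 for EIF5. Those of EIF1 gave 0.63, 0.56, 0.55 and 0.12. The 3 falls came to 1 without any one of 4 single arrays (GPI-PLD 6 h replicates 3 and 4, GPI-PLD 12 h replicates 1 and 4).

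Of 57 spliceosome, SR and hnRNP genes 11 fell and 4 rose. The falls lay mostly with the Sm, LSm and other snRNP proteins, 6 of 11 against 1 of 8 SR proteins and 3 of 16 hnRNP proteins. SNRPG, an Sm core protein, read 18257, 18451, 19652 and 20101 and then 12364, 13027, 13187 and 13607 (-0.55 ± 0.08, adjusted p 4.1e-05), and SNRPD3 fell by 0.62 ± 0.11 (adjusted p 0.000649). RBM39, a splicing factor, and the SR protein kinase CLK1 rose, by 0.61 ± 0.10 and 0.76 ± 0.18 (adjusted p 0.000151 and 0.0068). The count of falls was 7 without GPI-PLD 6 h replicate 1, without GPI-PLD 6 h replicate 2 or without GPI-PLD 12 h replicate 3, 6 without GPI-PLD 6 h replicate 3 and 5 without GPI-PLD 12 h replicate 1. Of 35 cytosolic and mitochondrial chaperones, which answer heat shock rather than ER stress, 6 fell and 1 rose. Their median was 0.0, with 17 positive and 18 negative differences. Falls made up 5.07% of all tested genes and 12.6% of the brightest 2026. DNAJB1, a co-chaperone of HSP70, read 5918, 6422, 6490 and 6619 at 6 h and 4088, 4297, 4323 and 4584 at 12 h (-0.55 ± 0.08, adjusted p 8.14e-05). HSPE1, the co-chaperonin of mitochondria, fell by 0.49 ± 0.07 and HSPH1, a nucleotide exchange factor, by 0.54 ± 0.10 on the log2 scale. HSP90AA1, the stress-inducible HSP90, gave -0.07 ± 0.09 (adjusted p 0.692, and 0.0421 in 1 alternative). Its other probe sets gave -0.21 ± 0.09, -0.20 ± 0.12 and -0.27 ± 0.12.

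**Figure D4:**
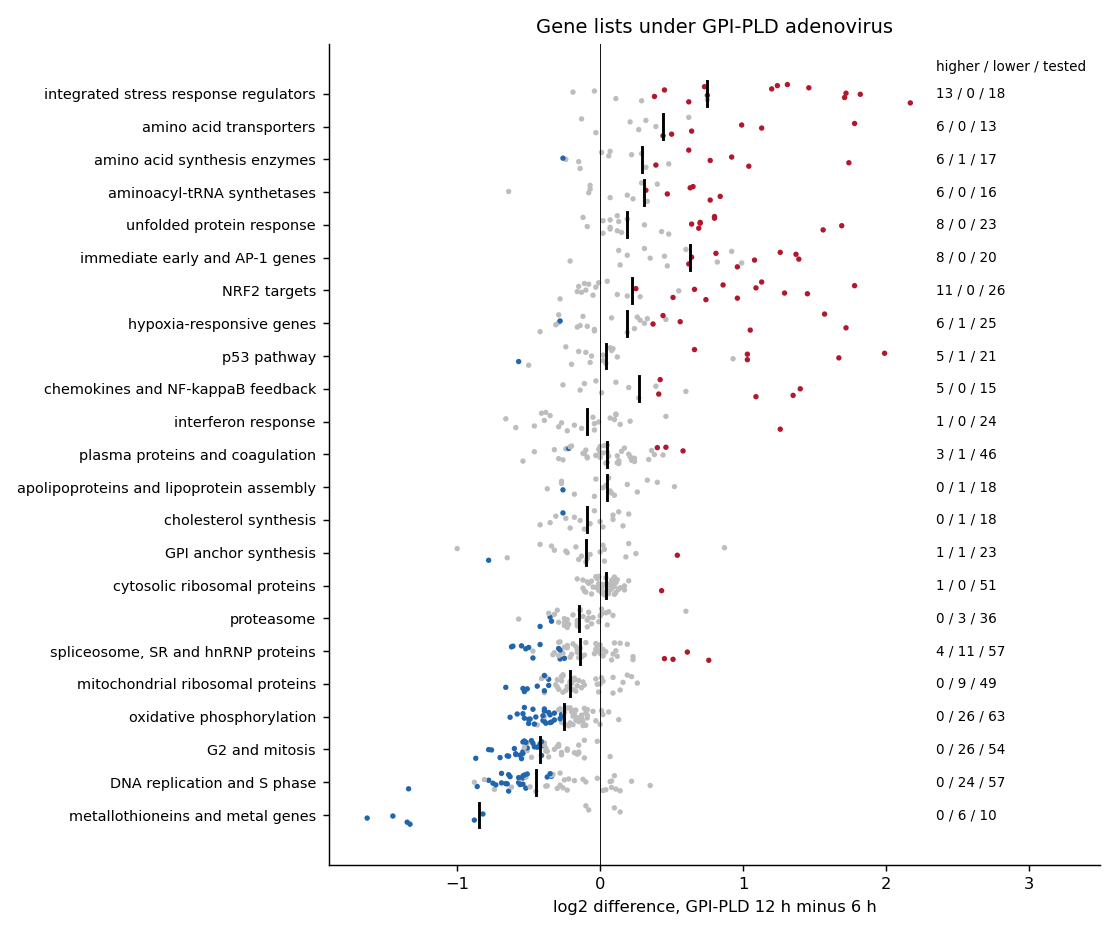
Log2 difference between GPI-PLD cells at 12 h and 6 h for the tested genes of 23 lists (points; red rose, blue fell, grey not called), with each list's median as a black bar and its counts at the right. Lists of stress regulators and amino acid supply lie to the right of 0, with a median of 0.75 for the regulators, and those of replication, mitosis and metallothioneins to the left, at -0.45, -0.42 and -0.85.

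Few genes of plasma proteins, lipoprotein assembly and cholesterol synthesis passed the test. Of 46 plasma protein and coagulation genes 3 rose and 1 fell, near the shares of all genes, with a median of 0.05. The risers kept under all alternatives were SERPINC1, antithrombin (0.46 ± 0.10, adjusted p 0.00257), and ITIH3, an inhibitor chain of plasma (0.58 ± 0.12, adjusted p 0.00188). SERPINA1, which encodes alpha-1 antitrypsin, gave 0.17 ± 0.07 (adjusted p 0.174). Of 18 apolipoprotein and lipoprotein assembly genes 0 rose and 1 fell. APOB, the structural protein of very low density lipoprotein, gave 0.07 ± 0.06 and APOA2 0.08 ± 0.07 (adjusted p 0.576 and 0.544). Of 18 cholesterol synthesis genes 0 rose and 1 fell, with a median of -0.09, and MSMO1, a sterol demethylase, gave -0.14 ± 0.08 (adjusted p 0.289). Of 13 hepatocyte transcription factors 2 rose and 1 fell, with a median of 0.10. Of 24 genes of fatty acid oxidation 4 fell and 0 rose, against falls in 5.07% of all tested genes, and 18 had a negative difference. The count of falls was 2 without GPI-PLD 6 h replicate 2, GPI-PLD 6 h replicate 4 or GPI-PLD 12 h replicate 1. ECI2, an isomerase of that pathway, gave -0.39 ± 0.07 (adjusted p 0.00114).

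Calls among the genes that build and carry the GPI anchor, the substrate of the enzyme, were near the shares of all genes. Those shares were 4.60% for rises and 5.07% for falls. Of 23 anchor synthesis genes 1 rose and 1 fell, with a median of -0.10. DPM3, which steadies the enzyme that makes dolichol phosphate mannose for the anchor, fell by 0.78 ± 0.19 on the log2 scale (adjusted p 0.00844), while DPM1, the catalytic subunit, gave -0.10 ± 0.11 (adjusted p 0.664). Of 23 GPI-anchored proteins 1 rose and 1 fell, with a median of 0.11. CD55, an anchored inhibitor of complement, rose by 0.97 ± 0.18 (adjusted p 0.000635), and the anchored proteoglycan GPC3 gave 0.30 ± 0.12 (adjusted p 0.146).

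The same interval in LacZ cells gave 295 rises (3.64% of genes tested) and 263 falls (3.25%), on arrays separate from the GPI-PLD ones. Both time effects use the same estimate of each gene's spread, so the calls under the viruses are not independent. Of the 373 rises in GPI-PLD cells 183 were also called in LacZ cells (49.1%), and these are 62.0% of the LacZ rises. For falls the shared genes were 154, or 37.5% of the GPI-PLD falls and 58.6% of the LacZ falls. Genes called in GPI-PLD cells had smaller differences in LacZ cells, with a median of 0.41 against 0.63 for rises and -0.30 against -0.48 for falls. That order is fixed in part by choosing the genes on the GPI-PLD arrays. Across all tested genes the 2 time effects had a Pearson correlation of 0.42. Some list medians had the same sign: 0.75 and 0.71 for the stress regulators, -0.45 and -0.31 for replication, -0.42 and -0.38 for mitosis, -0.25 and -0.18 for the respiratory chain and -0.85 and -0.98 for the metal genes, with GPI-PLD first. Respiratory chain falls numbered 26 and 11. Other medians were 0.59 and 0.30 for Kruppel-like factors, 0.44 and 0.59 for amino acid transporters and -0.11 and 0.04 for glycolysis. Immediate early genes had the higher median in LacZ cells, 1.01 against 0.63, with 13 called there against 8. These differences between lists were not tested.

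**Figure D5:**
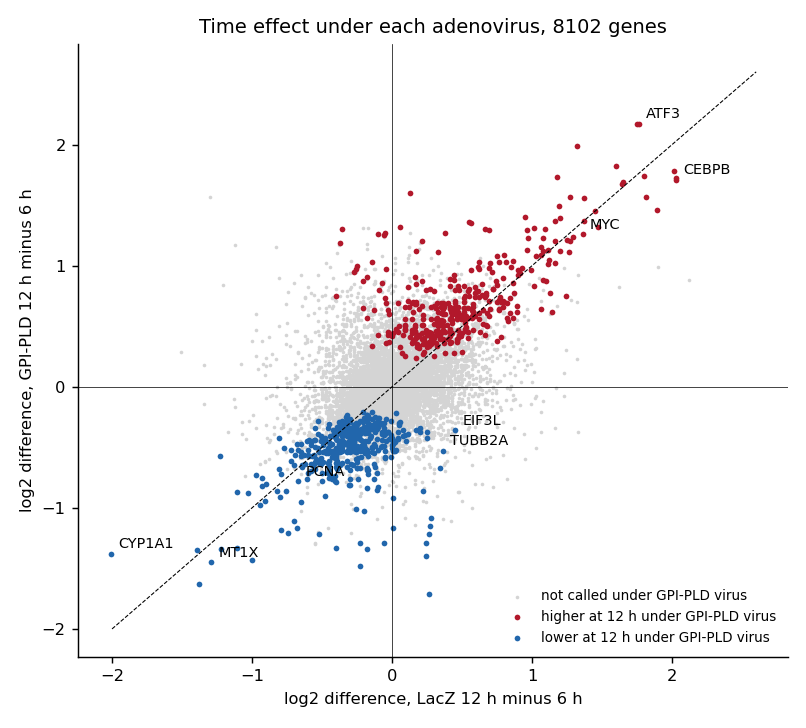
Log2 difference between 12 h and 6 h in GPI-PLD cells (vertical) against that in LacZ cells (horizontal), one point per tested gene, with the dashed line at equal values; red and blue points rose and fell in GPI-PLD cells. TUBB2A (-0.53 and 0.36) and EIF3L (-0.36 and 0.45) lie in the quadrant where the viruses differ in sign.

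The difference of the time effects themselves was tested gene by gene. At an adjusted p under 0.05 it was called for 1 gene (0.0123% of those tested), TUBB2A, and 610 genes had an unadjusted p under 0.05. TUBB2A, a beta tubulin, in GPI-PLD cells read 3246, 3407, 3519 and 3725 at 6 h but only 2022, 2274, 2362 and 3009 at 12 h (-0.53 ± 0.11, adjusted p 0.00184). In LacZ cells its mean went from 2668 to 3456 (0.36, adjusted p 0.0369), and the difference of the effects was -0.89 ± 0.15 (adjusted p 0.0384). TUBB2B, its near copy, rose in GPI-PLD cells from a mean of 456 to 800 (0.74 ± 0.17) and in LacZ cells by 0.59, and probes may not fully separate the copies. EIF3L, a subunit of the initiation factor eIF3, fell in GPI-PLD cells (-0.36 ± 0.10, adjusted p 0.0285), a call lost without any one of GPI-PLD 6 h replicates 3 and 4 or GPI-PLD 12 h replicates 1 and 2. It rose in LacZ cells by 0.45 and had an adjusted p of 0.0548 for the difference. Its GPI-PLD arrays overlapped, at 12241 to 17286 at 6 h and 10247 to 12423 at 12 h. The count of genes with a called difference was 3 without LacZ 6 h replicate 1, GPI-PLD 6 h replicate 1 or GPI-PLD 12 h replicate 2, and 0 without any one of the 4 LacZ 12 h arrays, LacZ 6 h replicates 2 to 4, GPI-PLD 6 h replicates 2 to 4 and GPI-PLD 12 h replicates 1 and 3. Next in order of p came TCEA1, an elongation factor of transcription, with a larger rise in GPI-PLD cells (0.64 ± 0.08) than in LacZ cells (0.19), and DYNLL1, with a larger fall (-0.76 against -0.24), both at an adjusted p of 0.376 for the difference. At that same adjusted p stood ABAT (-0.68), CIDEB (-0.82), COQ7 (0.66), GUCA2A (-1.71), NDUFB8 (-0.54) and OS9 (-0.49), in log2 differences between the time effects, GPI-PLD minus LacZ. Other probe sets above the filter gave 0.18 and 0.22 for NDUFB8, 0.09 and -0.14 for ABAT, 0.02 and 0.43 for COQ7 and -0.21 for OS9. GUCA2A read 82.4 to 107 on the LacZ 6 h arrays, under the filter signal of 188. The median 95% interval of the difference, not adjusted for the number of genes, reached 0.50 log2 units, or 1.41-fold, to either side, so a gene without a call is not shown to respond alike to time under both viruses.

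Markers of other cell types were summed to check the arrays. Of 10 endothelial markers 3 were tested and 0 of these passed, and the summed signal of the 10 was 856 to 1119 at 6 h and 1610 to 1917 at 12 h in GPI-PLD cells, against 810 to 1689 and 1071 to 1616 in LacZ cells. The GPI-PLD sums did not overlap between the times. The 3 above the filter, PECAM1, CLEC4M and ENG, had 12 h means of 335, 290 and 332, below or near the array medians. Of the 7 below the filter, STAB2 went from a 6 h mean of 172 to 377 in GPI-PLD cells (231 to 115 in LacZ cells), TEK from 89.6 to 158, VWF from 69.4 to 96.2, KDR from 74.1 to 83.0 and EMCN from 25.8 to 28.1. CDH5 (27.7, then 14.6) and TIE1 (8.1, then 12.1) were near 0. Among erythroid markers 1 of 2 tested rose, HBD, from a mean of 169 to 392, and its adjusted p of 0.0402 went above 0.05 without any one of GPI-PLD 6 h replicates 1 to 3 or GPI-PLD 12 h replicates 1 to 4 (0.0517 to 0.132). Sums of fibroblast and leukocyte markers overlapped between the times, at 4727 to 5871 and 5164 to 5994 for the first and 9920 to 12768 and 10835 to 14066 for the second. ACTA2 made up much of the first sum (means of 2662, then 2257) and LYZ most of the second (8742, then 9657). Of tested members, 5 of 6 fibroblast and 3 of 4 leukocyte markers had positive differences (median 0.28 in each list) and 0 were called. The median over the dimmest 2026 genes was 0.13. Of 5 biliary markers 1 rose, SPP1, osteopontin (0.46 ± 0.07, adjusted p 3.99e-05). What part these signals have in the results above was not tested.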

How the data were processed

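RNA of the 16 HepG2 samples was hybridised to 1 expression array each. The authors deposited 1 MAS5 signal intensity per probe set and array, per the submitters' processing notes, and the array trimmed means of 1000.3 to 1000.4 show that arrays had been scaled alike. No further scaling was applied. Signals were turned to log2(signal + 63), where 63 is the 20th percentile, and of the 19065 probe sets with 1 symbol, the one with the highest mean of log2(signal + 63) stood for each gene. Genes whose mean of log2(signal + 63) lay under that of a signal of 188 (40th percentile) were left out, leaving 8102. All 4 groups were fitted together with limma 3.58.1 (R 4.3.3, statmod 1.5.0; empirical Bayes with trend and robust settings), and p-values were adjusted by Benjamini-Hochberg over all genes tested. Tables and figures used Python 3.11.15, pandas 2.3.3, numpy 2.4.6 and matplotlib 3.10.9. The fit was tested on simulated data.

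The naming rule gives GPLD1, the 30 with the largest non-overlapping changes each way among brighter genes, up to 10 called and 3 bright uncalled members of each list, the 10 with the smallest p for a difference between viruses, and the brightest markers, 394 genes besides GPLD1. The text names 185 of them, all of the largest changes and, from the lists, members picked with their values known and with a preference for calls that held in the alternatives. The members and lists were chosen with earlier results of these data known. Alternatives covered scaling, pseudocount, filter, probe set choice, moderation, array weights, the arrays fitted and each array left out. Leaving out GPI-PLD 12 h replicates 2 and 4 together was chosen after seeing the data.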

Additional observations from a re-analysis of the deposited data

Results flagged for a closer look

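TUBB2A had a time effect that differed between the viruses, -0.89 on the log2 scale by limma (adjusted p 0.0384), and the adjusted p ran from 0.00169 to 0.196 over the alternatives.

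Single arrays stood apart from the other 3 of their group for 25 of the 374 groups of 4 arrays examined (187 genes), by Dixon's test of the gap to the nearest array over the range at the 95% level, which flags about 1 in 20 groups by chance. Among GPI-PLD 6 h arrays the highest value stood apart for AKR1B10 (5698), CCNG1 (13075), EIF2AK1 (7173), NFIL3 (2743), PECAM1 (286) and SLC38A2 (35978). The lowest 6 h value stood apart for BHLHE40 (781), IRS1 (1244), KPNA2 (12444), PSAT1 (10357), SARS1 (3864), STC2 (722), TARS1 (2378) and TOP2A (6554). Among GPI-PLD 12 h arrays the highest value stood apart for ATP5PD (15368), CD55 (1578), DTL (1459), GCLM (9296), HSPA5 (45618), MTHFD2 (14081), TK1 (1290) and TUBB2B (949). The lowest 12 h value stood apart for CCNG1 (8801), OS9 (3854) and SNRPD3 (3258).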

How the results depend on the processing

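Of the 243 called genes that the naming rule gives, 157 kept call and direction under all of the 26 or 27 alternatives run for a gene, 86 lost the call in at least 1 and 3 reversed in at least 1. Genes printed were picked in part for holding, so their own share is no measure of stability. The log2 difference of COQ7 in GPI-PLD cells, 0.31 and not called, was -0.13 with probe sets averaged per gene. The count of rises (373) ran from 287 to 395 with 1 array left out and that of falls (411) from 256 to 437, the lowest without GPI-PLD 6 h replicate 3. The single difference between viruses became 0 with no filter, under quantile normalization, with arrays scaled to their 75th percentile, with probe sets averaged per gene, under plain moderation and in a fit of every probe set. It became 2 with 4 times the pseudocount, with the 60th percentile filter and without GPI-PLD 12 h replicates 2 and 4 together, and ran from 0 to 3 with 1 array left out. The cause was not tested. Spliceosome falls came to 5 under plain moderation. No paired analysis was possible because the labels carry no replicate numbers; those used here only name arrays. Dim genes limit the result: the median 95% interval was 0.72 log2 units to either side in the 2026 dimmest genes.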
